A study of Arabidopsis thaliana with 12 samples.

Results

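The loci described here were more abundant in guard cell preparations than in whole leaves of untreated Arabidopsis thaliana, and more abundant still in guard cell preparations after abscisic acid (ABA). A locus was kept when its mean CPM (counts per 1000000 counts of the library) plus 1 in untreated guard cell preparations was at least 3 times that in untreated wild-type leaves. Its value after ABA also had to be at least 2 times the untreated value in the guard cell preparations, with a mean of at least 5 CPM. Of 36796 loci, 127 were chosen by these measured values. Of these, 123 code for proteins and 4 are annotated as long non-coding RNAs. The first ratio alone was met by 1348 loci, and the ABA criteria alone by 1249.

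Messenger RNA was sequenced in 12 libraries, 2 biological replicates in each of 6 groups, all in the Col-0 background. The groups were wild-type guard cell preparations with ABA, wild-type guard cell preparations as control, abf1/2/3/4 mutant leaves with ABA, abf1/2/3/4 mutant leaves as control, wild-type leaves with ABA and wild-type leaves as control. Rosettes of plants 5 to 6 weeks old, grown at 22 °C in 12 h of light per day, were sprayed with 50 µM ABA or with ethanol as vehicle 4 h before RNA extraction. Guard cell RNA came from isolated fragments of leaf epidermis and leaf RNA from whole leaf tissue, purified with different kits, and the mutant was not sampled as guard cells. The p-values below measure the spread between these replicates, 2 per group.

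ABA is the hormone that closes stomata when water is short. It acts through receptors that block protein phosphatases of type 2C, which frees SnRK2 protein kinases to act on ion channels and on the basic leucine zipper factors ABF1 to ABF4. These factors bind DNA elements with the core ACGTG and are known for turning on protective genes in leaves. Guard cells form the stomatal pore, and they take up and release sugars, organic acids and ions as the pore moves.

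In mutant leaves with ABA, ABF1 averaged 44.7 ± 0.126 CPM, against 113 ± 9.50 CPM in wild-type leaves with ABA (SD, n = 2 each). ABF3 averaged 12.5 ± 0.349 CPM in mutant leaves with ABA and 473 ± 7.92 CPM in wild-type leaves with ABA. ABF2 averaged 11 ± 0.334 CPM in the mutant, against 124 ± 4.27 CPM in the wild type under ABA, and ABF4 averaged 2.43 ± 0.223 CPM, against 74.8 ± 1.31 CPM. All 4 were below wild type, and none is among the 127 loci. Where in these genes the mutant alleles lie is not given in the labels.

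The label of the guard cell preparations was checked against marker genes. Of 11 guard cell markers, 9 were at least 3 times as high in the untreated preparations as in untreated leaves, with ratios from 8.68 for ALMT12 to 15.8 for GC1. Of 8 vascular markers, 3 reached a ratio of 3. SUC2, the sucrose transporter of phloem companion cells, had a ratio of 9.36 APL, a phloem identity factor, a ratio of 7.67 and SULTR2;1, a sulfate transporter, a ratio of 3.59. The other 5 ran from 0.920 for XCP1, a protease of xylem vessels, to 2.81 for SWEET11. Summed over 8 vascular markers, the preparations held 5207 and 5335 CPM, against 1033 and 1078 CPM in untreated wild-type leaves, and SUC2 alone averaged 3212 CPM in the preparations, against 342 CPM in the leaves. In the ABA-treated preparations the same sum was 4892 to 5021 CPM. None of 8 mesophyll markers reached a ratio of 1, and 2 of 7 epidermis markers reached 3. Of 4 trichome markers, 0 reached 3. GL2, a trichome and epidermis factor, averaged 42.1 ± 0.540 CPM in untreated preparations, against 47.5 ± 2.76 CPM in untreated wild-type leaves, while GL1 was at 0 in leaves as well as in preparations. The part of vascular tissue in the enrichment of the loci was not tested. In these bulk samples, fewer cells of a type and less RNA per cell cannot be told apart.

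The enrichment of most of the 127 loci was smaller than that of these 9 markers. Their ratio of untreated preparations to untreated leaves had a median of 3.86 and ran from 3.01 to 19.2. Only 6 loci reached the 8.68 of the lowest of the 9 enriched guard cell markers, and 70 loci lay under 4. None of the 11 guard cell markers was among the 127 loci, and 6 of the 11 stood at or under a ratio of 0.5 with ABA. The 127 loci are therefore called preparation-enriched below. With ABA, their ratio over the untreated preparations had a median of 3.71 and a highest value of 64.5. Both ratios chose the loci and carry no test.

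**Figure D1:**
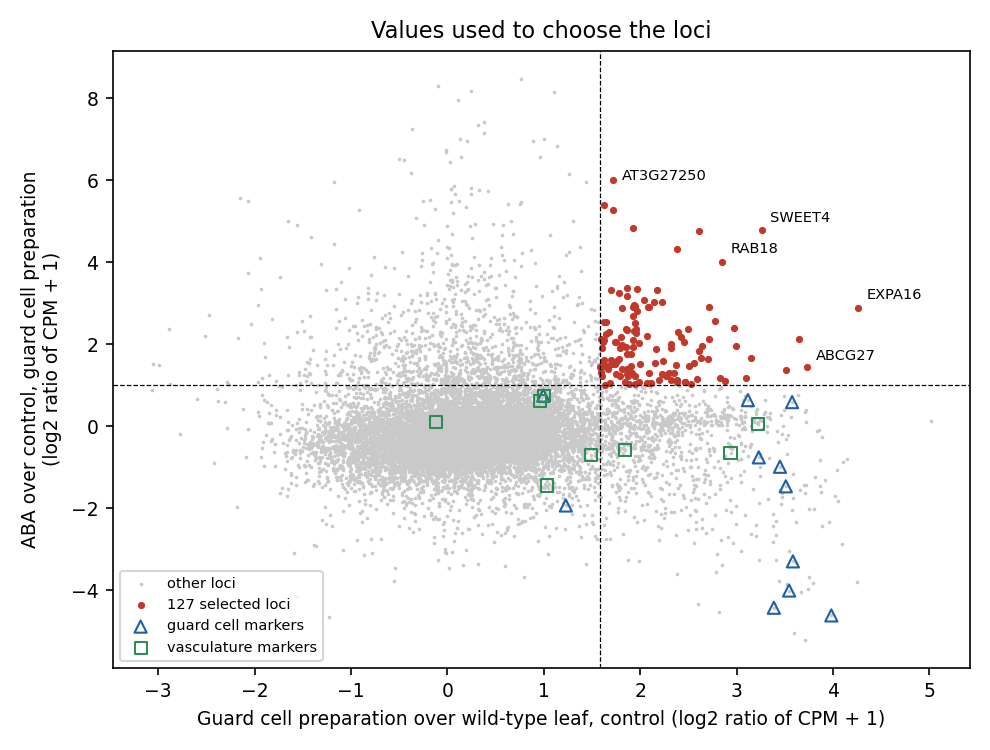
Ratio of untreated guard cell preparations to untreated wild-type leaves (x axis, log2 of CPM + 1) against the ratio of ABA to control within guard cell preparations (y axis, log2 of CPM + 1), for loci of at least 5 CPM in ABA-treated preparations. Dashed lines mark the 3-fold and 2-fold thresholds, red points are the 127 loci, triangles are guard cell markers and squares are vasculature markers. EXPA16 lies farthest right among the 127 at 19.2, and no guard cell marker lies above the 2-fold line.

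Summed, the 127 loci took 3.18% and 3.30% of the counts in ABA-treated guard cell preparations, against 0.787% and 0.748% in untreated preparations. In mutant leaves they took 0.331% and 0.342% with ABA, against 0.191% and 0.159% in control. In wild-type leaves they took 1.54% and 1.67% with ABA, against 0.166% and 0.157% in control. Control leaves of the 2 genotypes thus overlapped in this share, while under ABA the mutant leaves lay below both wild-type leaves.

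The loci at the edge of the rule show how fine its limits are. AT1G16310, a cation efflux family gene, was kept with an ABA ratio of 2.00, and AT1G04077 with a preparation-to-leaf ratio of 3.01. AT3G19613, XTH9 and DREB2A were the next 3 inside. Just outside lay WAVH1 at a preparation-to-leaf ratio of 2.99, AT3G24840 at 2.98, YSL8 at 2.98 and AT3G25400 at 2.96, and AT1G69610 at an ABA ratio of 1.98. CPM here rest on column totals. With totals scaled by TMM factors, 97 loci met the rule and 72 of them were among the 127. Over all tested loci, the median log2 ratio of preparations to leaves was 0.37 with column totals and -0.01 with TMM factors. The median log2 ABA response of preparations was -0.32 with column totals and -0.02 with TMM factors. Column totals thus shifted these medians by 0.38 and by -0.30 from the TMM values.

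The leaf libraries with ABA and all mutant leaf libraries played no part in the rule, so the leaves give a measurement of the same loci apart from it. In abf1/2/3/4 leaves, 105 of the 127 loci rose with ABA, 1 fell and 21 were not called, by the quasi-likelihood test of edgeR at an adjusted p under 0.05. Over all 22341 tested loci, 18.9% rose and 15.5% fell in mutant leaves. The median log2 fold change of the 127 loci was 1.06, against 0.01 over all tested loci. In wild-type leaves, 126 of the 127 loci rose, where 27.5% of all tested loci did, with a median log2 fold change of 2.45 against -0.08. The rule has untreated wild-type leaves as a denominator, which favours a rise in that contrast. With untreated mutant leaves in that place, 109 loci met the rule, 95 of them among the 127, and 104 of the 109 rose in wild-type leaves. No member fell in wild-type leaves by edgeR or by DESeq2, and 0 fell at an unadjusted p under 0.05, where edgeR called 33.7% of all tested loci as falling.

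The response was smaller in the mutant for most of the loci. The difference between the ABA responses of mutant and wild-type leaves was called and negative for 111 loci, positive for 2 and not called for 14, where 15.1% of all tested loci were negative and 20.1% positive. Its median was -1.49 on the log2 scale. Untreated wild-type leaves, the denominator in the rule, also enter this difference, which favours negative values. Under ABA, mutant leaves were below wild-type leaves for 113 loci and above them for 2, where 26.6% of tested loci were lower and 30.7% higher. In control leaves, 19 loci were higher and 11 lower in the mutant, where 12.1% of tested loci were higher and 14.4% lower. The untreated wild-type leaves of this contrast are the denominator in the rule, which favours higher values in the mutant. Of 104 loci that rose in both genotypes, 89 had a called smaller response in the mutant. Another 21 rose in wild-type leaves, were not called in mutant leaves, and had a called smaller response. The mutant log2 fold change was a median of 0.394 times the wild-type one. A log2 fold change of at least 1 was seen for 69 loci in mutant leaves and 124 in wild-type leaves. The counts from 104 onward are given without shares over all tested loci. Untreated wild-type leaves, the denominator in the rule, also enter the wild-type fold changes, which favours the higher wild-type count.

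**Figure D2:**
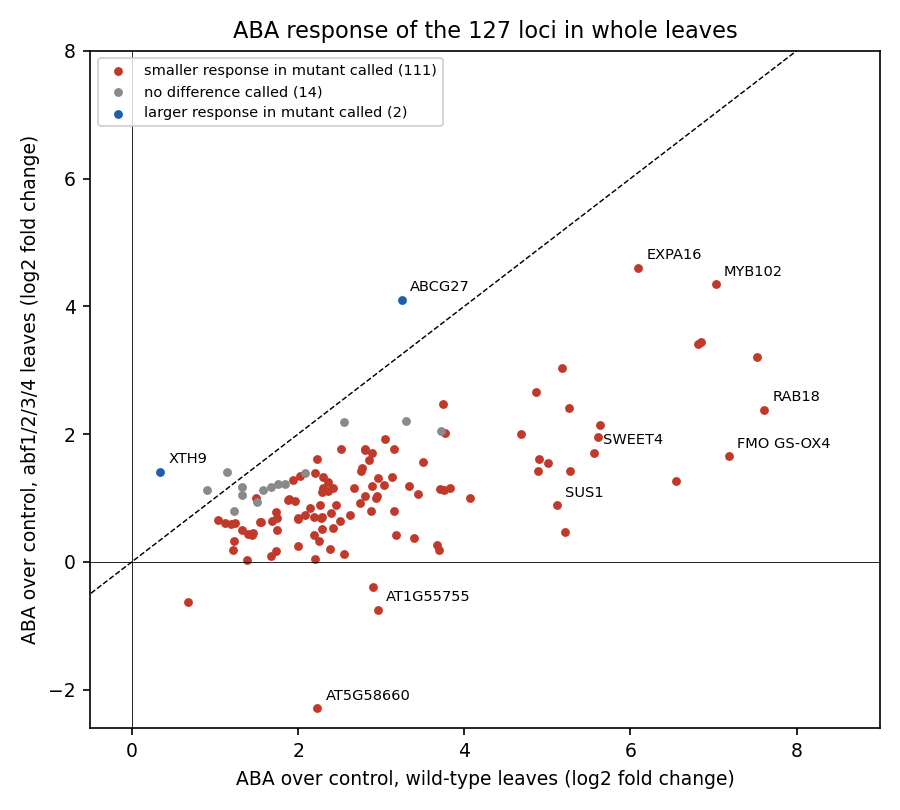
ABA response in abf1/2/3/4 leaves (y axis) against that in wild-type leaves (x axis), both as log2 fold changes from edgeR, for the 127 loci. Colours give the call on the difference between the responses, and the dashed line marks equal responses. 111 loci are called smaller in the mutant, and ABCG27 and XTH9 are the 2 called larger. The position of AT5G58660 rests on 0 and 2 counts in the mutant with ABA.

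The other loci at higher levels with ABA in guard cell preparations also rose in leaves for the most part. Of the 127 loci, 82.7% rose in mutant leaves, 99.2% rose in wild-type leaves and 87.4% had a called smaller response in the mutant. For 1122 loci that met the ABA criteria without the enrichment criterion, these shares were 71.5%, 98.1% and 77.9%. The difference between these 2 sets was not tested. Of 941 loci of at least 5 CPM that met the enrichment criterion without the ABA criterion, 26.6% rose and 11.4% fell in mutant leaves, and 29.0% rose and 30.7% fell in wild-type leaves.

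Wild-type leaves are also set beside the preparations under ABA. The ratio of ABA-treated preparations to ABA-treated wild-type leaves had a median of 3.89 and ran from 0.422 to 12.4. It was at least 3 for 81 loci and below 1 for 6. These 6 were P5CS1 at 0.422, AT4G33150 at 0.574, RAB18 at 0.752, AT1G17940 at 0.855, FMO GS-OX4 at 0.911 and KCS3 at 0.998. The ratio was larger under ABA than in control for 54 loci and smaller for 73. The rule used the ABA-treated preparations, which favours high ratios under ABA, and it used the control ratio itself. These counts therefore describe the chosen loci and carry no test.

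**Figure D3:**
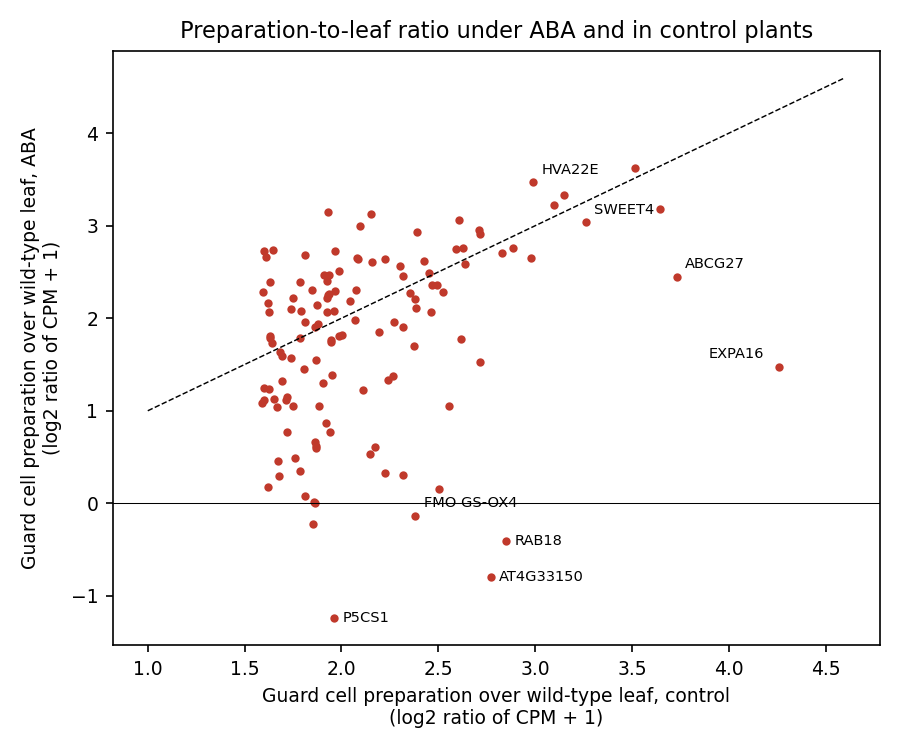
Ratio of guard cell preparations to wild-type leaves, both with ABA (y axis), against the same ratio in control plants (x axis), as log2 of CPM + 1, for the 127 loci. The dashed line marks equal ratios and the solid line equal levels. Both ratios hold values that the rule used. P5CS1 lies lowest at a ratio of 0.422, and EXPA16 is farthest right.

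Upstream sequence is printed for 6 loci that differ in leaf behaviour, from the 300 bases before the annotated start in RefSeq's TAIR10.1 assembly. They do not include the loci with the most negative differences between the genotypes. SWEET4, NAC019, LEA14 and SUS1 lost much of their ABA response in the mutant, EXPA16 kept more of it, and ABCG27 responded more in the mutant. Each run reads 5′ to 3′ along the gene, with the core ACGTG and its reverse complement CACGT in capitals.
SWEET4 (chr3:10409978-10410277, minus strand): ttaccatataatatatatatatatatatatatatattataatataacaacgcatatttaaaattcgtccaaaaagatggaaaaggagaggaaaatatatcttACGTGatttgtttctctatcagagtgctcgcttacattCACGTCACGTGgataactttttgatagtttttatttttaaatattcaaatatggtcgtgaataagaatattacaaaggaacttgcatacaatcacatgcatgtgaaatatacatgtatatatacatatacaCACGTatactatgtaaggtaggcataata
NAC019 (chr1:19698483-19698782, minus strand): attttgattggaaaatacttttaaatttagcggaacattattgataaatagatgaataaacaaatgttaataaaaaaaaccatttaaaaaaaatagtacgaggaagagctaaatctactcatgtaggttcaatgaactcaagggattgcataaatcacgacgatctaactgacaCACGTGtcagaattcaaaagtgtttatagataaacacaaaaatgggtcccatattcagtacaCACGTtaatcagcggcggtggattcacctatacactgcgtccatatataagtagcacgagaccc
LEA14 (chr1:172949-173248, minus strand): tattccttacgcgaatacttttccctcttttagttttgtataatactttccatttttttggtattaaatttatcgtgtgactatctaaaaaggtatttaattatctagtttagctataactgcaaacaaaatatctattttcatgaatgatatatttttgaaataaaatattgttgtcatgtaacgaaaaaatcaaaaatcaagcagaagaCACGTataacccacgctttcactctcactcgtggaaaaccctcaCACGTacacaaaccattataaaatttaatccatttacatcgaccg
SUS1 (chr5:7055399-7055698, minus strand): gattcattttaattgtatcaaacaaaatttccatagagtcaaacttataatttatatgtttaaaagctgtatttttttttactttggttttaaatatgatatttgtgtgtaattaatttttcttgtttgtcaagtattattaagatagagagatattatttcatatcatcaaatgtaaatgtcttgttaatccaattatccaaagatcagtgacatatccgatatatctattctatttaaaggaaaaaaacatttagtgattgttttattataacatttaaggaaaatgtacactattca
EXPA16 (chr3:20576250-20576549, minus strand): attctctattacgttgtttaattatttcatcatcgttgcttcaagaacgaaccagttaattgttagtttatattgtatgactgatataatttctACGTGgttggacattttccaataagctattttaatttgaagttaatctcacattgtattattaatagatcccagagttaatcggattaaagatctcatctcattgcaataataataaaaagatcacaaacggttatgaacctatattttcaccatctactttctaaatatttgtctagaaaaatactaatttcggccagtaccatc
ABCG27 (chr3:19398888-19399187, plus strand): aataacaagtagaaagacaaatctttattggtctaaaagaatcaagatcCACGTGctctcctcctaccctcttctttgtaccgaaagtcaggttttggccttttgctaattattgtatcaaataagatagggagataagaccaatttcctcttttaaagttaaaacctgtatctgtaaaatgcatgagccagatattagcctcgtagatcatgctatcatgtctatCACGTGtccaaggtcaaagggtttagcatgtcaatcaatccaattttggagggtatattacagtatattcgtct

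Over all 127 loci, 50 held ACGTG on either strand in these 300 bases, or 39.4%, against 25.5% of 22340 tested loci with such a window. The window of SWEET4 held 4 cores, those of NAC019, LEA14 and ABCG27 held 2 each, that of EXPA16 held 1 and that of SUS1 held 0. FMO GS-OX4, AT4G33150, RAB18 and PS2, with the most negative differences between responses, are not printed. Their windows held 0, 0, 3 and 0 cores. Among 38 loci whose mutant response was smaller by at least 2 on the log2 scale, 18 held the core, or 47.4%. Among 16 loci with no called smaller response, 5 did, or 31.3%. The confidence intervals of these 2 shares overlapped, at 32.5% to 62.7% and 14.2% to 55.6%, and their difference was not tested. In 500 bases the 2 shares were 52.6% and 43.8%, and those of the 127 and of tested loci were 46.5% and 35.1%. The longer element ACGTGGC, which contains ACGTG, was found in 5.51% of the 127 and in 4.13% of tested loci. TAAAG, the core bound by Dof factors that are known for guard cell promoters, was found in 68.5% and 64.6%. CACATG or its complement CATGTG, a MYC-type element, was found in 13.4% and 12.9%. A match describes these letters only and is not a bound site.

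For description the loci were sorted by annotated function, after their values had been seen, into 9 classes that take up 74 of the 127. The remaining 53 are uncharacterised or of other function. Over all 127, 82.7% rose in mutant leaves, 99.2% rose in wild-type leaves and 87.4% had a called smaller response in the mutant. Counts within a class are to be read beside these shares, and differences between classes were not tested. The largest classes were transport of organic solutes and the cell wall, with 13 loci each, followed by signalling with 11 and transcription and chromatin with 10.

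**Figure D4:**
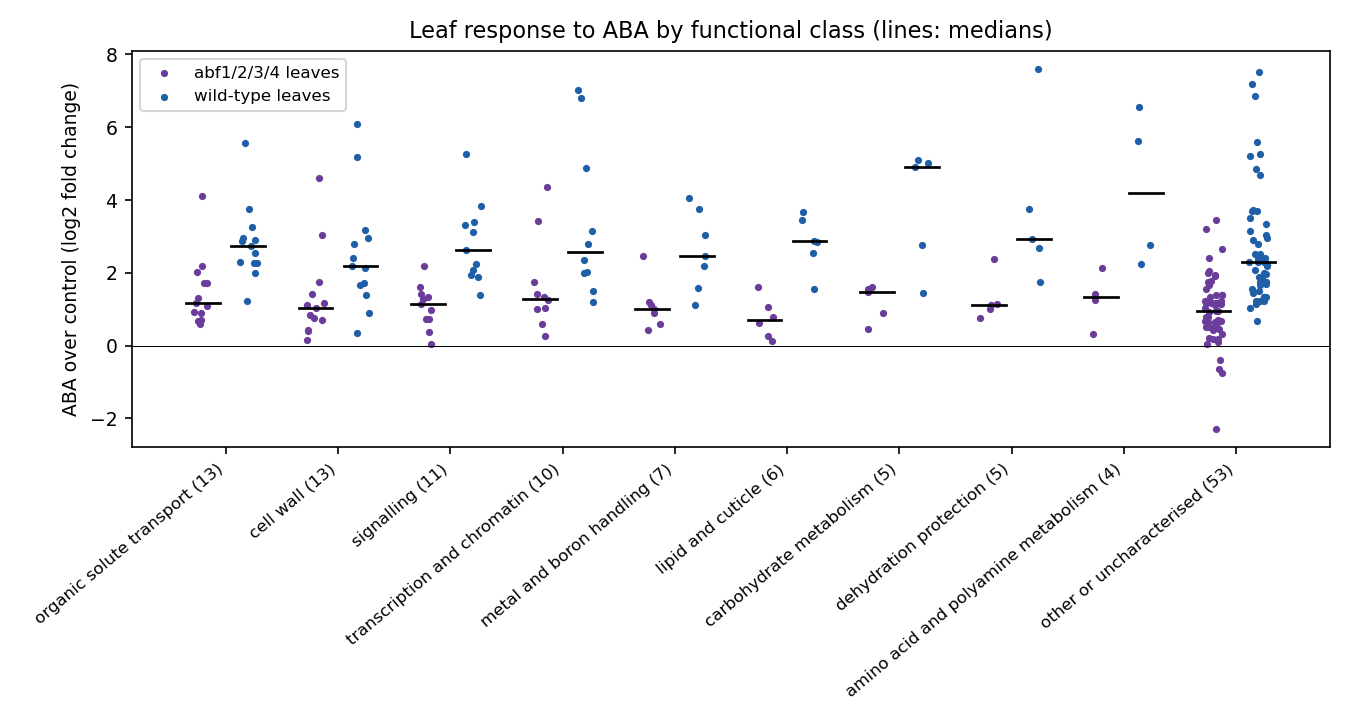
ABA over control in abf1/2/3/4 leaves (purple, left) and in wild-type leaves (blue, right), as log2 fold changes from edgeR, by functional class with the number of loci in brackets. Points are loci and lines are medians. In each class the mutant median lies below the wild-type median, from 1.47 against 4.90 in carbohydrate metabolism to 1.02 against 2.19 in cell wall.

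Carriers of sugars and amino acids made up most of the first of these classes. All 13 organic solute transport loci rose in both genotypes, with a median log2 fold change of 1.18 in mutant leaves and 2.74 in wild-type leaves, and 11 had a called smaller response in the mutant. SWEET4, a sugar facilitator of the plasma membrane, had 937 and 1106 CPM in ABA-treated guard cell preparations, against 36.9 and 35.3 CPM in untreated preparations. It had 8.91 and 8.42 CPM in mutant leaves with ABA, against 3.32 and 2.59 CPM in mutant control leaves. In wild-type leaves it had 111 and 136 CPM with ABA, against 3.01 and 2.73 CPM in control. In leaves of either genotype no ABA library overlapped its own control, and under ABA both mutant leaves lay far below both wild-type leaves. The log2 fold change was 1.71 ± 0.16 in mutant leaves (SE, adjusted p = 2.24e-05, edgeR) and 5.56 ± 0.15 in wild-type leaves (adjusted p = 3.79e-10), a difference of -3.86 ± 0.22 (adjusted p = 9.19e-07).

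AAP1, a proton-coupled amino acid permease, had 2205 and 2153 CPM in ABA-treated preparations, against 448 and 379 CPM in untreated preparations. In mutant leaves it had 111 and 106 CPM with ABA, against 62.6 and 44.3 CPM in control, and in wild-type leaves 331 and 362 CPM with ABA, against 53.5 and 49.8 CPM in control. Mutant and wild-type controls overlapped, while under ABA both mutant leaves lay below both wild-type leaves. The log2 fold change was 1.18 ± 0.14 in the mutant (adjusted p = 9.76e-05, edgeR) and 2.88 ± 0.14 in the wild type (adjusted p = 3.19e-08), and the responses differed by -1.70 ± 0.19.

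A group of 6 loci belongs to the UMAMIT family, whose studied members move amino acids across membranes in both directions or outward. SIAR1, also known as UMAMIT18, had 218 and 242 CPM in ABA-treated preparations, against 24.0 and 20.1 CPM in untreated preparations. In mutant leaves it had 22.6 and 23.8 CPM with ABA, against 6.93 and 5.80 CPM in control. In wild-type leaves it had 69.3 and 81.7 CPM with ABA, against 7.05 and 5.19 CPM in control. It rose by 2.02 ± 0.15 on the log2 scale in the mutant (adjusted p = 7.17e-06, edgeR) and by 3.77 ± 0.15 in the wild type (adjusted p = 5.31e-09), with a difference of -1.75 ± 0.21. UMAMIT20, UMAMIT11, UMAMIT22, UMAMIT17 and UMAMIT28 also rose in both genotypes, by 0.60 to 2.19 in mutant leaves and by 1.24 to 2.89 in wild-type leaves. The call on UMAMIT17 in mutant leaves was lost without mutant control replicate 2, at 0.59, or mutant ABA replicate 1, at 0.46. UMAMIT28 had no called difference between the responses (-0.35 ± 0.33, adjusted p = 0.442, edgeR), which stood at -0.80 and was called without mutant control replicate 2, and at 0.35 without replicate 1. Of 46 annotated UMAMIT loci, 35 were tested. Among the 29 tested loci outside the 127, 4 rose and 10 fell in wild-type leaves, where 27.5% of all tested loci rose and 33.7% fell. UMAMIT29 missed the rule with a preparation-to-leaf ratio of 2.81, and UMAMIT33 with 1.07.

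Other carriers included ESL1, a monosaccharide transporter of the vacuolar membrane, and AT1G25530, annotated as an amino acid transporter. AT1G25530 had 1.97 and 1.59 CPM in mutant leaves with ABA, against 1.28 and 0.851 CPM in mutant control, and its called rise there, at 0.92 ± 0.31 (adjusted p = 0.0404, edgeR), was lost with upper quartile factors, at 0.86, with column totals, at 0.76, with only the libraries compared, at 0.86, without mutant control replicate 2, at 0.67, without either mutant ABA replicate, at 0.71 and 1.06, and without either wild-type control replicate, at 0.92. ESL1 averaged 53.3 ± 8.93 CPM in mutant leaves with ABA, against 27.7 ± 6.23 CPM in mutant control, and 103 ± 0.865 CPM in wild-type leaves with ABA, against 23.1 ± 0.46 CPM in control (SD, n = 2 each). Its log2 fold changes were 1.09 and 2.29. ABCG27, an ABC transporter of subfamily G, was the exception of the class. It had 31.4 and 32.5 CPM in mutant leaves with ABA, against 2.48 and 1.62 CPM in mutant control, and 24.4 and 24.8 CPM in wild-type leaves with ABA, against 2.74 and 2.93 CPM in control. Its preparation-to-leaf ratio of 13.3 was the second largest of the 127. The rise was 4.10 ± 0.17 in the mutant and 3.25 ± 0.15 in the wild type, and the difference of 0.86 ± 0.24 was called (adjusted p = 0.0169, edgeR). That call was lost without wild-type control replicate 2, at 0.79, or without mutant control replicate 2, at 0.60.

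**Figure D5:**
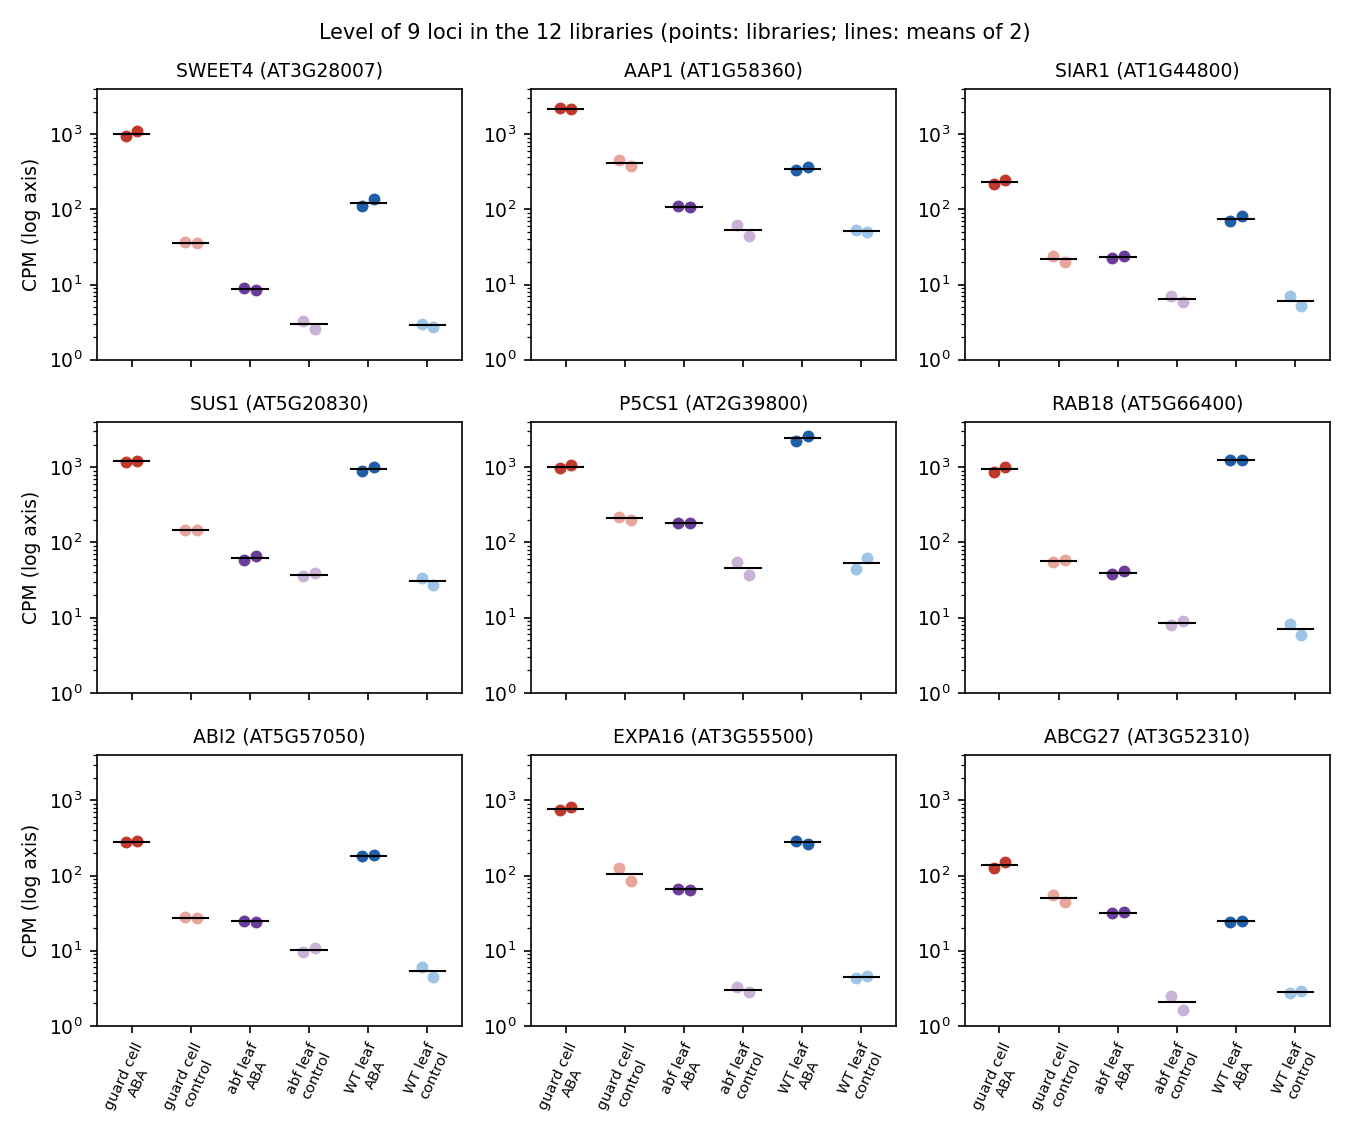
CPM of 9 loci in every library, on a log axis, with the 2 replicates as points and their mean as a line. Groups run from guard cell preparations through abf1/2/3/4 leaves to wild-type leaves, with ABA left of control. SWEET4, SUS1, P5CS1, RAB18 and ABI2 lie lower in mutant leaves than in the wild type under ABA, and ABCG27 lies at 31.4 and 32.5 CPM in the mutant beside 24.4 and 24.8 CPM in the wild type.

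Genes of carbohydrate metabolism had some of the largest gaps between genotypes. SUS1 and SUS3, 2 of the 6 sucrose synthases that split sucrose to a nucleotide sugar and fructose, are both among the 127. SUS1 had 1175 and 1222 CPM in ABA-treated preparations, against 146 and 145 CPM in untreated preparations. In mutant leaves it had 58.9 and 65.3 CPM with ABA, against 35.6 and 39.1 CPM in control. In wild-type leaves it had 889.9 and 1014 CPM with ABA, against 33.2 and 27.4 CPM in control. Controls of the genotypes lay close together and the ABA levels far apart. The rise was 0.88 ± 0.10 in the mutant (adjusted p = 7.91e-05, edgeR) and 5.11 ± 0.11 in the wild type (adjusted p = 2.01e-10), with a difference of -4.23 ± 0.14. SUS3 rose by 1.60 in mutant and 4.90 in wild-type leaves. ADH1, an alcohol dehydrogenase, rose by 1.54 and 5.01, C/VIF1, an inhibitor of invertases, by 1.47 and 2.77, and AMY2, an alpha-amylase-like gene, by 0.44 and 1.45. All 5 had a called smaller response in the mutant. The call on AMY2 in mutant leaves was lost with column totals as library sizes, at 0.29, without mutant control replicate 2, at 0.36, or without mutant ABA replicate 1 or 2, at 0.44 and 0.46. Of the exon bases of C/VIF1, over 25% lie in another locus.

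Amino acid and polyamine metabolism was represented by 4 loci. P5CS1, which catalyses the rate-limiting step of proline synthesis, had 966 and 1080.3 CPM in ABA-treated preparations, against 221 and 202 CPM in untreated preparations. In mutant leaves it had 181 and 184 CPM with ABA, against 55.4 and 37.2 CPM in control, and in wild-type leaves 2213 and 2635 CPM with ABA, against 45.0 and 62.1 CPM in control. Wild-type leaves with ABA thus held more than the ABA-treated preparations. The rise was 2.14 ± 0.19 in the mutant (adjusted p = 1.87e-05, edgeR) and 5.63 ± 0.22 in the wild type (adjusted p = 5.51e-09), with a difference of -3.50 ± 0.26. AT4G33150, the bifunctional enzyme of lysine breakdown, had 9.37 and 9.68 CPM in mutant leaves with ABA, against 4.56 and 4.29 CPM in mutant control, and 309 and 498 CPM in wild-type leaves with ABA, against 5.11 and 4.38 CPM in control. It rose in both genotypes, and its responses differed by -5.29 ± 0.33 (adjusted p = 1.56e-06, edgeR). AT5G15950, an S-adenosylmethionine decarboxylase of spermidine synthesis, rose by 1.42 and 2.76. ADC2, which makes the polyamine precursor agmatine, was the one locus of the class not called in mutant leaves. It averaged 215 ± 24.0 CPM in mutant leaves with ABA, against 192 ± 35.0 CPM in mutant control, a log2 fold change of 0.32 ± 0.12 (adjusted p = 0.0633, edgeR), and rose by 2.25 ± 0.13 in wild-type leaves. DESeq2 and edgeR with no filter on low counts called ADC2 in mutant leaves, both at 0.32, and so did edgeR without mutant control replicate 1, at 0.52.

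All 5 dehydration protection loci rose in both genotypes with a called smaller response in the mutant. RAB18, a dehydrin used as a marker of ABA action, had 865 and 1009 CPM in ABA-treated preparations, against 54.8 and 59.2 CPM in untreated preparations. It had 38.5 and 41.2 CPM in mutant leaves with ABA, against 8.06 and 8.94 CPM in mutant control, and 1241 and 1251 CPM in wild-type leaves with ABA, against 8.30 and 5.80 CPM in control. The rise was 2.38 ± 0.14 in the mutant and 7.61 ± 0.17 in the wild type, the largest of the 127 there, and the difference was -5.23 ± 0.20 (adjusted p = 1.99e-07, edgeR). LEA14, a late embryogenesis abundant protein, was the highest of the 127 per exon length in ABA-treated preparations, at 1759 CPM per kilobase, against 348 CPM per kilobase in untreated preparations. It rose by 1.12 in mutant and 3.75 in wild-type leaves. AT2G23120, another late embryogenesis abundant gene, rose by 1.15 and 2.67, HVA22D by 1.01 and 2.94 and HVA22E by 0.77 and 1.74.

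Among signalling loci, 8 of 11 rose in mutant leaves and all 11 in wild-type leaves. ABI1 and ABI2, phosphatases that restrain ABA signalling, stand on a list of 22 ABA response genes, of which 5 are among the 127. ABI1 had 124 and 133 CPM in mutant leaves with ABA, against 65.0 and 63.4 CPM in mutant control, and 547 and 651 CPM in wild-type leaves with ABA, against 47.1 and 45.3 CPM in control. ABI2 had 25.3 and 23.9 CPM in mutant leaves with ABA, against 9.48 and 11 CPM in mutant control, and 181 and 189 CPM in wild-type leaves with ABA, against 6.15 and 4.45 CPM in control. In the controls both genes lay higher in mutant than in wild-type leaves, and under ABA lower. The responses differed by -2.68 ± 0.12 for ABI1 (adjusted p = 3.52e-07, edgeR) and by -3.85 ± 0.17 for ABI2 (adjusted p = 3.1e-07). Over the whole list of 22, 18 rose and 1 fell in mutant leaves, 22 rose in wild-type leaves and 21 had a called smaller response. The 17 list genes outside the 127 all had a preparation-to-leaf ratio under 3.

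RBOH F, an NADPH oxidase that makes reactive oxygen in guard cell ABA signalling, was the only one of 33 listed guard cell transport and signalling genes among the 127. Of those 33, 15 had a preparation-to-leaf ratio of at least 3, and 15 stood at or under a ratio of 0.5 with ABA. RBOHD, another NADPH oxidase on the list, was one of the latter, at 0.25, and fell in leaves of both genotypes. RBOH F had 135 and 124 CPM in ABA-treated preparations, against 43.3 and 45.6 CPM in untreated preparations. It had 35.6 and 36.2 CPM in mutant leaves with ABA, against 16.8 and 16.1 CPM in mutant control, and 34.7 and 37.5 CPM in wild-type leaves with ABA, against 10.3 and 10.4 CPM in control. Under ABA the genotypes overlapped, with a log2 difference of -0.13 ± 0.07 that was not called (adjusted p = 0.120, edgeR), though it was with RLE factors, at -0.19. The responses still differed, by -0.66 ± 0.10 (adjusted p = 0.000414), and the mutant controls lay above the wild-type controls. SNRK2.7, a kinase of the SnRK2 family, was not called in mutant leaves, at 0.38 ± 0.19 (adjusted p = 0.185, edgeR), and rose by 3.39 ± 0.16 in wild-type leaves.

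Of 10 transcription and chromatin loci, 9 rose in mutant leaves and all 10 in wild-type leaves, and all 10 had a called smaller response in the mutant. NAC019, a stress NAC factor, had 484 and 474 CPM in ABA-treated preparations, against 12.2 and 10.5 CPM in untreated preparations. In leaves it had 32.9 and 32.7 CPM in the mutant with ABA, against 4.41 and 2.40 CPM in mutant control, and 236 and 323 CPM in the wild type with ABA, against 3.17 and 2.33 CPM in control. MYB102 had one of the largest rises in both genotypes, at 4.35 ± 0.43 in the mutant and 7.02 ± 0.28 in the wild type. The call on its difference of -2.68 ± 0.88 (adjusted p = 0.0354, edgeR) was lost without wild-type control replicate 2, wild-type ABA replicate 2, mutant ABA replicate 1 or either mutant control replicate, at adjusted p from 0.0535 to 0.244. NAC6 and NAC047 rose by 1.43 and 1.03 in mutant leaves and by 4.89 and 2.80 in wild-type leaves. The mutant call on NAC6 was lost without mutant control replicate 2, at 1.17, or mutant ABA replicate 1, at 1.27. HIS1-3, a linker histone known to respond to drought, rose by 1.76 and 3.15. DREB2A, a factor of drought and heat responses, was not called in mutant leaves, at 15.4 and 17.2 CPM with ABA, against 12.9 and 17.4 CPM in control. In wild-type leaves it rose by 1.99 ± 0.20, at 18.1 and 23.0 CPM with ABA, against 4.63 and 6.66 CPM in control. Mutant controls of DREB2A thus lay above wild-type controls. Under ABA both mutant leaves lay below both wild-type leaves, a difference not called in the main fit. Among other settings, it was called by DESeq2, at -0.52, and with a replicate block, at -0.44.

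Cell wall loci ranged from 0.16 to 4.61 in log2 fold change in mutant leaves and from 0.34 to 6.09 in wild-type leaves. EXPA16, an expansin that loosens walls, had the highest preparation-to-leaf ratio of the 127 and the largest rise in mutant leaves. It had 742 and 818 CPM in ABA-treated preparations, against 125 and 84.6 CPM in untreated preparations. It had 67.1 and 65.1 CPM in mutant leaves with ABA, against 3.25 and 2.78 CPM in mutant control, and 292 and 267 CPM in wild-type leaves with ABA, against 4.37 and 4.66 CPM in control. The rise was 4.61 ± 0.19 in the mutant (adjusted p = 3.49e-07, edgeR) and 6.09 ± 0.19 in the wild type (adjusted p = 1.01e-09), and the difference was -1.48 ± 0.26. AT1G48100, annotated as a pectin lyase-like protein, rose by 3.04 and 5.17, though over 25% of its exon bases overlap AT1G07477. EXLB1, an expansin-like gene, rose by 0.70 and 2.19.

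XTH9, which cuts and rejoins xyloglucan, was the one locus not called in wild-type leaves. It had 24.7 and 20.0 CPM in mutant leaves with ABA, against 11.4 and 7.35 CPM in mutant control, and 14.7 and 12.4 CPM in wild-type leaves with ABA, against 11.7 and 11.8 CPM in control. The log2 fold change was 1.41 ± 0.18 in the mutant (adjusted p = 0.000163, edgeR) and 0.34 ± 0.17 in the wild type (adjusted p = 0.110), and the difference of 1.07 ± 0.25 was called (adjusted p = 0.00618). The wild-type rise was called by DESeq2, at 0.41, with a replicate term, at 0.33, with only the libraries compared, at 0.40, and without either mutant control replicate, at 0.34. XTH9 and APC11, a subunit of the ubiquitin ligase that drives mitotic exit, were the 2 loci higher in mutant than in wild-type leaves under ABA, by 0.62 ± 0.17 (adjusted p = 0.00868, edgeR) and 0.31 ± 0.11 (adjusted p = 0.0267). The call on XTH9 was lost without wild-type ABA replicate 2, at 0.48, or mutant ABA replicate 1, at 0.43, and that on APC11 by DESeq2 or with RLE factors, at 0.25, without wild-type ABA replicate 2, at 0.26, or without either mutant ABA replicate, at 0.31 and 0.32.

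Metal and boron handling held 7 loci, 6 called as rising in the mutant and all 7 in the wild type. HIPP21 and MT1C, a heavy metal-associated protein and a metallothionein that bind metal ions, had preparation-to-leaf ratios of 12.5 and 11.4. HIPP21 rose by 1.2 ± 0.21 in the mutant and 3.03 ± 0.22 in the wild type. MT1C had 12.1 and 15.4 CPM in mutant leaves with ABA, against 8.61 and 5.18 CPM in mutant control, and 10.4 and 17.0 CPM in wild-type leaves with ABA, against 6.36 and 3.89 CPM in control. The genotypes overlapped at both treatments, and the difference between its responses was not called (-0.45 ± 0.39, adjusted p = 0.409, edgeR). Its called rise in the mutant, at 1.13 ± 0.28, was lost without mutant control replicate 2, at 0.81, or mutant ABA replicate 2, at 0.98. BOR5, a member of the borate exporter family, rose by 2.47 and 3.75, HMA5, a copper-transporting ATPase, by 0.89 and 2.45, and AT1G79520, a cation efflux gene, by 0.99 and 4.07.

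The 6 lipid and cuticle loci included KCS3 and KCR2, which belong to families that elongate very long fatty acids. KCS3 rose by 1.06 in mutant and 3.45 in wild-type leaves, and KCR2 by 0.79 and 2.88. The mutant call on KCR2 was lost without mutant ABA replicate 2, at 0.65. TLL1, a lipase-like gene, averaged 142 ± 9.51 CPM in mutant leaves with ABA, against 102 ± 38.2 CPM in mutant control (SD, n = 2 each). Its call in the mutant, at 0.62 ± 0.18 (adjusted p = 0.0193, edgeR), was lost with column totals as library sizes, at 0.47, with only the libraries compared, at 0.58, without mutant ABA replicate 1, at 0.67, or without replicate 2, at 0.57. Its called smaller response in the mutant was lost without mutant ABA replicate 1, at -0.87 (adjusted p = 0.0542, edgeR). None of 22 listed wax and cutin genes was among the 127.

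Outside these classes stood several of the strongest responses. FMO GS-OX4, which oxygenates glucosinolates, had 20.9 and 22.2 CPM in mutant leaves with ABA, against 8.24 and 6.96 CPM in mutant control, and 847 and 827 CPM in wild-type leaves with ABA, against 7.51 and 5.22 CPM in control. Its responses differed by -5.53 ± 0.23 (adjusted p = 2.57e-07, edgeR), the most negative value of the 127. PS2, a phosphatase annotated as inorganic pyrophosphatase 1, was not called in the mutant, at 0.642 and 0.949 CPM with ABA, against 0.912 and 0.309 CPM in control, and differed by -4.75 ± 0.55 (adjusted p = 8.58e-05, edgeR). Without mutant control replicate 1 its mutant rise was called, at 1.44, and without replicate 2 it stood at -0.095. CYS1, a cystatin that inhibits cysteine proteases, averaged 1518 ± 13.8 CPM in ABA-treated preparations, against 724 ± 24.1 CPM in untreated preparations, and rose by 0.50 in mutant and 1.32 in wild-type leaves. AT3G27250, an uncharacterised protein, had the highest ABA ratio in the preparations at 64.5, with 475 and 497 CPM with ABA, against 6.12 and 6.97 CPM in control, and rose by 3.20 and 7.53 in leaves. The next highest ABA ratios were 41.9 for AT4G01985, 38.8 for NAC019, 28.8 for AT4G30460, 27.6 for SWEET4 and 27.2 for AT1G54575, and AT5G04080, a small cysteine-rich membrane protein, closed the 6 most enriched with a preparation-to-leaf ratio of 8.87. The log2 fold changes of AT4G01985, AT4G30460, AT1G54575 and AT5G04080 were 3.45, 2.40, 1.95 and 0.68 in mutant leaves, and 6.85, 5.26, 5.61 and 1.75 in wild-type leaves. The mutant call on AT5G04080 was lost without mutant ABA replicate 1, at 0.50.

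The single called fall in mutant leaves was AT1G55755, which codes for an uncharacterised protein. It had 1.48 and 1.40 CPM in mutant leaves with ABA, against 2.30 and 3.17 CPM in mutant control, a log2 fold change of -0.75 ± 0.21 (adjusted p = 0.0189, edgeR). The call was lost with only the libraries compared, at -0.81, without mutant control replicate 2, at -0.50, or without either mutant ABA replicate, at -0.82 and -0.70. A share of 0.838 of its exon bases overlaps AT1G55760, and reads from the shared bases cannot be assigned to 1 of the 2 genes without strand. AT5G58660, an oxygenase of the 2-oxoglutarate-dependent type, had 0 and 2 counts in mutant leaves with ABA and is given without a fold change there. It rose by 2.23 ± 0.36 in wild-type leaves (adjusted p = 0.000242, edgeR), at 1.49 and 2.29 CPM with ABA, against 0.506 and 0.396 CPM in control.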

How the data were processed

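The deposited table holds whole-number read counts per locus for 12 libraries, made by the authors with no normalization, as unequal column totals of 25294558 to 47116819 show. Per the labels' protocols, TruSeq V2 mRNA libraries were made from leaf RNA (Spectrum kit) and epidermal fragment RNA (RNeasy kit). Per the submitters' processing notes, Trim Galore 0.6.5, cutadapt, FastQC, SAMtools, featureCounts, DESeq2 1.26.0 and build TAIR10 were used. The aligner and any strand setting are not given in the sources used here, so overlapping loci were not separated. Of 36796 identifiers, 36632 matched the RefSeq annotation of TAIR10.1, including all 127 members, which supplied symbols, exons and upstream sequence.

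CPM were counts divided by column totals, and ratios used the mean of 2 replicates plus 1. The members and the gene lists were chosen with earlier results of these data known. Leaf contrasts came from 1 fit over all 12 libraries (edgeR 4.0.16 in R 4.3.3: filterByExpr, TMM factors, quasi-likelihood F-test, 2-sided, Benjamini-Hochberg over 22341 loci), with 6 group means and no replicate term. A call is an adjusted p under 0.05, and each SE was taken from the F statistic and the log2 fold change. All 127 members passed the filter. DESeq2 1.42.0, other scaling factors, filters, thresholds and left-out libraries were tried as alternatives. The test was checked on simulated counts for mutant leaves with ABA against control: of loci changed by a log2 of 1, 92% were recovered over 21831 loci. In the same comparison 14 unchanged loci were called. The changed loci were drawn only from those above a minimum expected count, so the recovered share does not cover members with few counts. Members named were the highest by CPM, enrichment, ABA ratio, leaf response or difference between genotypes, those nearest the thresholds, those on the lists, and examples of each functional class chosen after their values were seen. Precision is limited by 2 replicates per group.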

Additional observations from a re-analysis of the deposited data

Results flagged for a closer look

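The ABA responses of mutant and wild-type leaves were set against each other for each locus by an interaction term in edgeR, and each result here is a difference between the 2 genotypes that the test called. It was called for 111 of the 127 loci as smaller in the mutant and for 2 as larger. Among the loci whose values are given above, the difference on the log2 scale, mutant minus wild type, was -5.53 for FMO GS-OX4, -5.29 for AT4G33150, -5.23 for RAB18, -4.75 for PS2 and -4.23 for SUS1. It was -3.86 for SWEET4, -3.85 for ABI2, -3.50 for P5CS1 and -2.68 for ABI1. Smaller gaps were found for SIAR1 at -1.75, AAP1 at -1.70, EXPA16 at -1.48 and RBOH F at -0.66. ABCG27 at 0.86 and XTH9 at 1.07 had the larger response in the mutant. Untreated wild-type leaves stand in this difference and in the rule that chose the loci, which favours negative differences. No cause was tested.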

How the results depend on the processing

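Leaving out each library in turn gave 122 to 131 loci by the rule, 94 to 106 rises and 0 to 2 falls in mutant leaves, 124 to 127 rises and 0 falls in wild-type leaves, 106 to 114 loci lower and 0 to 3 higher in mutant leaves under ABA, and 101 to 110 smaller and 1 to 2 larger responses in the mutant. The loci themselves changed more than their number. Of the 127, 114 were kept without untreated guard cell replicate 1, the fewest, and 123 without either ABA-treated guard cell replicate, the most. With both ratio thresholds 25% higher, 53 loci met the rule, and with both 25% lower, 321 did. With the pseudocount at 0.5 CPM, 162 loci met it, and 86 did when every pairing of replicates had to. The 105 rises in mutant leaves became 69 when a log2 fold change of at least 1 was asked for. The single fall there became 2 with upper quartile factors and 3 with column totals or with no filter on low counts. It became 0 with only the libraries compared, at an adjusted p under 0.01, at a log2 fold change of at least 1, or without loci that share over 25% of their exon bases. The 2 loci higher in mutant leaves under ABA became 1 with RLE factors, DESeq2 or an adjusted p under 0.01, 4 with column totals and 0 at a log2 fold change of at least 1. The 2 larger responses became 1 at either stricter threshold. Without 1 library in turn, the signs of 3 single values changed: PS2 in mutant leaves ran from -0.095 to 1.44, MT1C between genotypes under ABA from -0.43 to 0.26, and the difference between responses of UMAMIT28 from -0.80 to 0.35. Where not named by construction, the cause was not tested. A replicate block gave 105 rises and 1 fall in mutant leaves, 127 rises in wild-type leaves, 114 loci lower under ABA and 111 smaller responses. The replicate numbers share only a number, since no label pairs them and the replicate deviations of the groups correlate by -0.17 to 0.24. With 2 replicates per group, small responses such as that of XTH9 in wild-type leaves sit near the threshold.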

Other observations

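Some of the 127 loci lie side by side in the genome. UMAMIT20 and UMAMIT17 are direct neighbours on 1 strand, as are RALFL32 and AT4G14020, which code for small secreted peptides of the RALF family, and PSY1 and AT5G58660 are neighbours on opposite strands. UMAMIT20 averaged 210 CPM in ABA-treated preparations, against 27.3 CPM in untreated preparations, and UMAMIT17 60.0 CPM against 15.3 CPM. Of 11 such pairs with at most 2 loci between them, 5 overlap in their exons. AGP10 and AT4G09035 are 1 of these and had identical counts in 3 of the 12 libraries, so they cannot be read as 2 measurements. Another 3 of the loci, AT1G50630, AT3G20300 and MRB1, carry the DUF3537 annotation, and their log2 fold changes with ABA were 0.65, 1.18 and 0.09 in mutant leaves and 1.69, 3.33 and 1.67 in wild-type leaves.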
